A study of Mus musculus with 9 samples.

Results

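The transcriptomes of the progenitor lines Hox-URE and Hox-WT were compared gene by gene, with each line represented by 3 poly-A RNA libraries. Hox-WT has a wild-type genotype. Hox-URE carries the UREd/d genotype, a homozygous deletion of the upstream regulatory element (URE), a distal enhancer of *Spi1*, which encodes the transcription factor PU.1. According to the methods of the study, c-Kit+ progenitors of the bone marrow, 1 mouse per genotype, were immortalized with a fusion of Hoxb8 to an estrogen receptor domain, so both lines carry this transgene. The reagents list of the study credits Hox-WT to an earlier publication and Hox-URE to the study itself, so the origin of the lines differed along with genotype. Both were grown with IL-3, IL-6, stem cell factor and β-estradiol, and the mice were on a C57BL/6 background. Of the 54347 genes in the table, 13082 had enough counts to be tested. All of them belong to the comparison, and they were described through 65 lists of genes with a shared function.

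PU.1 is an ETS family factor that binds purine-rich sites in promoters and enhancers of myeloid and lymphoid genes. It is required for the formation of macrophages and B cells, and its amount matters as well as its presence. The URE lies far upstream of *Spi1* and keeps its expression high in blood progenitors. Mice without the element make little PU.1 in their marrow and can develop acute myeloid leukemia.

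The 6 libraries held between 20879183 and 28588718 counts, and 3 counts corresponded to 0.104 to 0.153 CPM (counts relative to the library size, scaled with TMM factors). Values with ± are the mean and SD of 3 libraries, unless SE is named. *Spi1* had 110, 101 and 96.5 CPM in Hox-WT libraries 1 to 3, and 1, 1 and 0 counts in those of Hox-URE. The ratio of the lines was 3642, with a 95% counting interval from 1008 to 30080 that covers counting error only. *Xist*, transcribed from the inactive X chromosome, averaged 24.8 ± 2.16 CPM in Hox-WT with 0 counts in Hox-URE, whereas the Y-linked *Kdm5d* averaged 34.9 ± 0.145 CPM in Hox-URE against 0.0478 ± 0.0205 CPM in Hox-WT (SD, n = 3 each). Hox-URE and Hox-WT were therefore 1 male and 1 female line, and genotype, sex and the history of a single line cannot be told apart here. The stem cell factor receptor *Kit* was detected in all libraries. *Ptprc*, which encodes the pan-leukocyte antigen CD45, had 152, 170 and 152 CPM in Hox-WT and 0 counts in the 3 Hox-URE libraries, so that this defining marker of blood cells was missing in Hox-URE.

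Differences between the lines were assessed with edgeR. Calls required an adjusted p below 0.05 together with a fold change above 1.5. By this rule 4873 genes were called (37.2%), of which 2789 were higher in Hox-URE (21.3%) and 2084 lower (15.9%). Of these, 1146 were over 4-fold higher and 754 over 4-fold lower. Many differences were between presence and near absence, since 490 of the higher genes had no more than 3 counts in any Hox-WT library and 319 of the lower genes no more than 3 in any Hox-URE library. The median log2 fold change of all genes tested was 0.00. In 7886 genes (60.3%), no library of one line overlapped with those of the other, whether called or not.

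The study derived 4 gene signatures from single cells, and genes inside and outside them were called. The 1773 tested signature genes included 615 higher and 475 lower genes, while 2174 higher and 1609 lower genes stood among the 11309 tested genes of no signature. Counting calls in either direction, whether or not it was that of the signature, 61.5% of signature genes and 33.5% of the others were called. The latter made up 77.6% of all called genes. Protein-coding genes rose in 21.4% and fell in 16.5% of 11685 cases. Antisense transcripts were less balanced, as 56 of 222 rose (25.2%) and 13 fell (5.9%), with a median log2 fold change of 0.40. Of 254 lincRNAs, 70 rose and 46 fell.

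**Figure D1:**
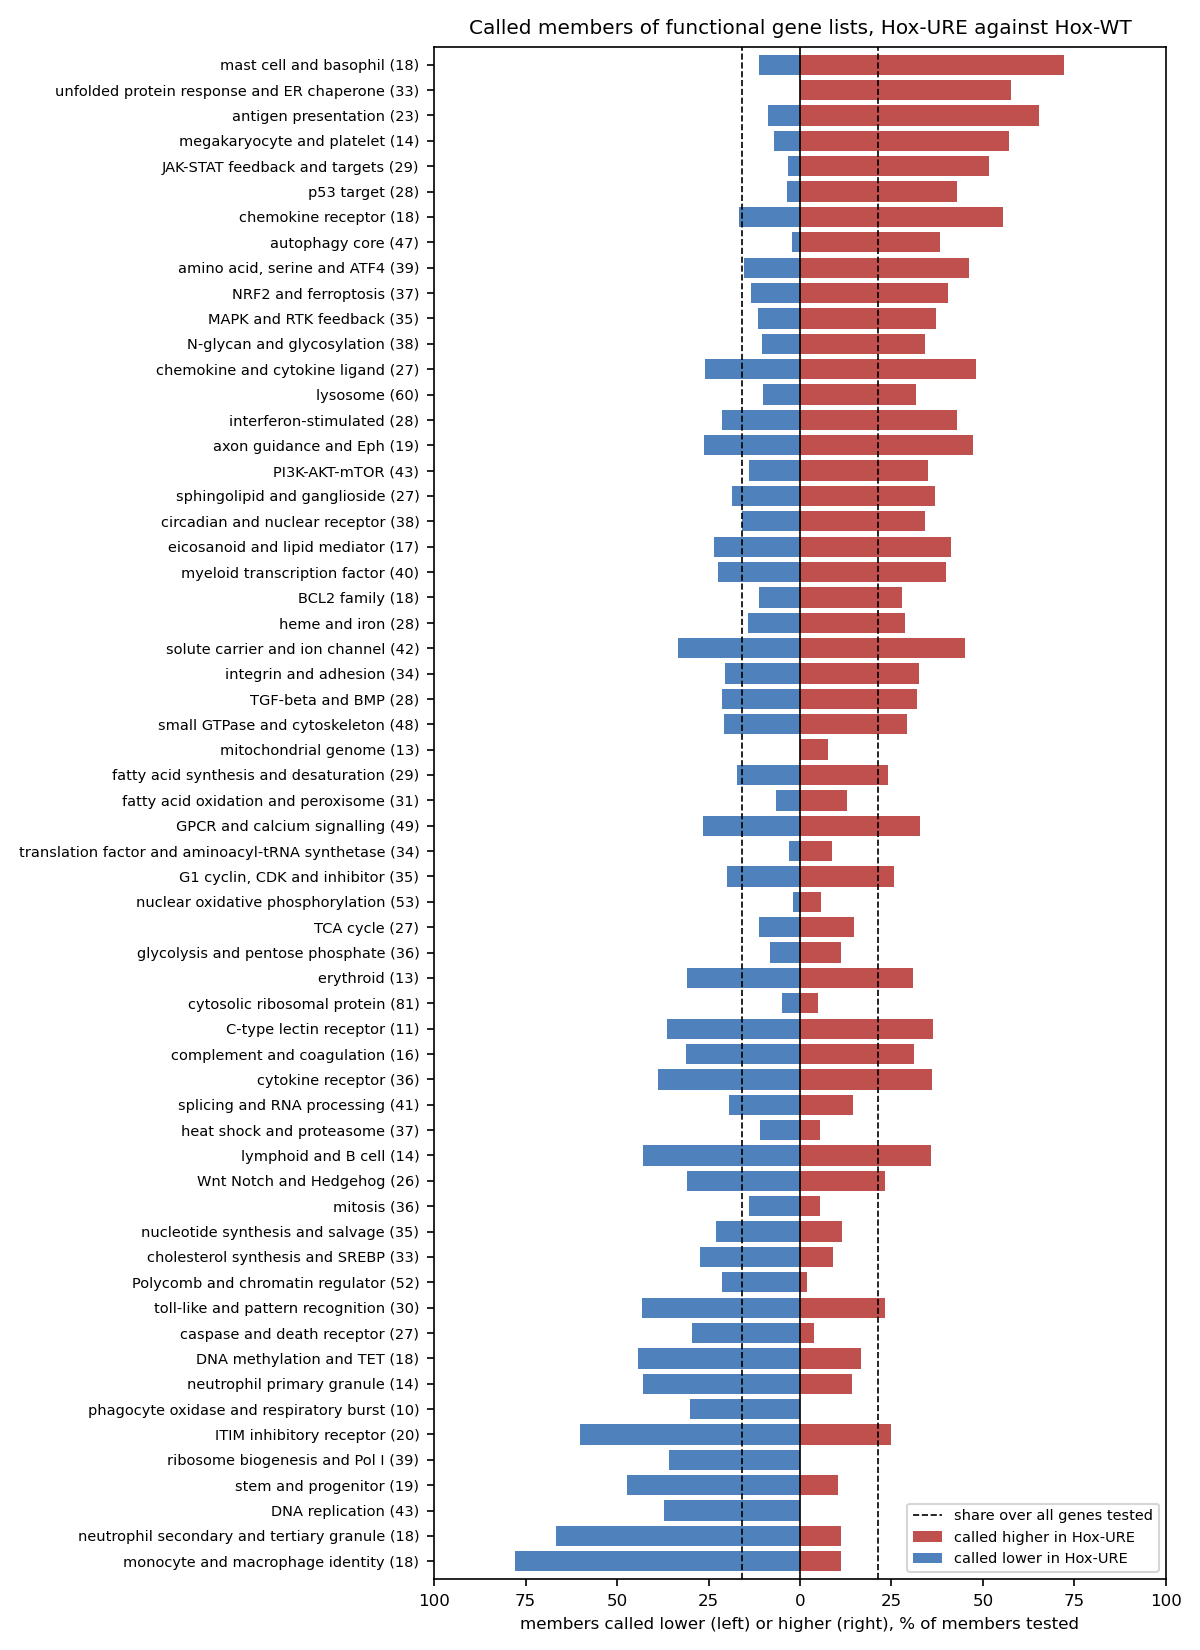
Share of the tested members of each gene list that was called higher (right, red) or lower (left, blue) in Hox-URE, in percent, with the number of members tested in brackets. Dashed lines give the shares over all genes tested, 21.3% higher and 15.9% lower. Unfolded protein response and mast cell lists reach far to the right without a matching left bar, and monocyte and granule lists reach far to the left.

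In the lists of granules and of the monocytic lineage more genes were called lower than higher in Hox-URE. Primary (azurophil) granules form first in neutrophil development and hold serine proteases and myeloperoxidase. Of 14 tested genes of this list 6 fell (42.9%) and 2 rose (14.3%), with a median log2 fold change of -0.69, and 4 rose without Hox-URE library 1. *Mpo*, the peroxidase that makes hypochlorous acid, had 3292, 5950 and 5884 CPM in Hox-WT and 10.2, 2.82 and 2.15 CPM in Hox-URE. The lines lay far apart, and the log2 fold change was -9.93 ± 0.63 (SE, adjusted p by edgeR = 8.77e-07). Neutrophil elastase (*Elane*) had 112, 234 and 196 CPM in Hox-WT against 8.85, 10.7 and 8.28 CPM, with no overlap. Proteinase 3 (*Prtn3*) fell less, from 564, 623 and 576 to 115, 130 and 133 CPM. Not all granule genes followed, since the protease inhibitor *Serpinb1a* and the dipeptidase *Ctsc*, which activates granule proteases, were called higher. Cathepsin G (*Ctsg*) averaged 1993 ± 356 CPM in Hox-WT and 3325 ± 738 CPM in Hox-URE (SD, n = 3 each) and was not called (edgeR adjusted p = 0.0545), although it was called with DESeq2, with other filters, in a fit of the 6 Hox libraries alone and without Hox-URE library 1, with log2 fold changes of 0.73 to 0.90.

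The sequences upstream of some of these genes are shown because PU.1 binds GA-rich ETS sites. In the 250 bases before the RefSeq start site (GRCm38.p6), the PU.1 core GAGGAAGT was searched on both strands. It stood in 755 of 27025 mouse promoters (2.79%), in 4 of the 12 primary granule genes with a sequence (33.33%) and in 3 of 16 secondary and tertiary granule genes (18.75%). It was found in 1 of 15 monocyte genes (6.67%) and 1 of 17 mast cell genes (5.88%). A pair of other motifs was searched the same way. The RUNX core TGTGGT stood in 15.92% of all promoters and in 5 of the 12 primary granule genes, 4 of 16 secondary and tertiary granule genes, 4 of 15 monocyte genes and 5 of 17 mast cell genes. The general ETS core CCGGAAGT, which ends in the same letters as the PU.1 core, stood in 3.23% of all promoters and in no gene of these lists. The members with the PU.1 core were *Mpo*, *Elane*, *Prtn3*, *Mmp8*, *Olfm4*, *S100a8*, *Ly6c2* and *Hpgds*, all called lower, and *Ctsc*, called higher. *Mmp8* and *Olfm4* were weak, with no more than 1.94 and 1.52 CPM in any library, and without Hox-URE library 1 *Olfm4* was not called. Over all called genes with a sequence the PU.1 core was about as frequent in both directions, in 69 of 2074 higher (3.33%) and 56 of 1618 lower genes (3.46%), and in 2.87% of those not called. The general ETS core stood in 4.48% of higher, 5.25% of lower and 8.14% of not called genes. For the RUNX core these shares were 13.89%, 14.46% and 12.59%. Sequences were at hand for 74.8% of tested genes, under the 80% set for a comparison of groups, so the shares are a description, and a match is not a bound site. The windows of 4 genes that fell (*Mpo*, chr11:87793534-87793783, *Elane*, chr10:79886062-79886311, *Prtn3*, chr10:79879417-79879666, and *S100a8*, chr3:90668821-90669070, all plus strand) follow from 5′ to 3′, with the PU.1 core in capitals. In *S100a8* the core lies on the opposite strand and so reads ACTTCCTC.
Mpo: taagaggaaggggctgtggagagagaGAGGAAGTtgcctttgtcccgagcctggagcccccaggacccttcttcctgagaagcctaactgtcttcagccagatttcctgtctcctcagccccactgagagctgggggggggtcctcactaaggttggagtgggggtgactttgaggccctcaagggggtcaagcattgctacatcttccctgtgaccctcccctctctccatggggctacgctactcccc
Elane: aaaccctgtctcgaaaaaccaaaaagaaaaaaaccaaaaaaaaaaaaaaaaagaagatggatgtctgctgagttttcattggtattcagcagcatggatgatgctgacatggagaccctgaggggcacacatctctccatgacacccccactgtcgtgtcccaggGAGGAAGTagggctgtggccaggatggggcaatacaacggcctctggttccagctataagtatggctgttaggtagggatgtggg
Prtn3: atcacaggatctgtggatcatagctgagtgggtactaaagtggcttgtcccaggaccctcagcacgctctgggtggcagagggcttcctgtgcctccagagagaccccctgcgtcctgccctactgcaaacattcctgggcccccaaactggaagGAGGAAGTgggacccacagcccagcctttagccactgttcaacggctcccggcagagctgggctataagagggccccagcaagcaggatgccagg
S100a8: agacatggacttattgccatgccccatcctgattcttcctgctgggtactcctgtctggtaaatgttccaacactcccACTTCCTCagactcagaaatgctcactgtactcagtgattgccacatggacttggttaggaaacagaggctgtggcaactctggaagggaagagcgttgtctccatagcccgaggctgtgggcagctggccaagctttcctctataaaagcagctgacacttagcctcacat

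Later granule genes were low in Hox-URE. Of 18 tested secondary and tertiary granule genes 12 fell (66.7%) and 2 rose (11.1%). The median log2 fold change was -5.90. It was -2.77 when genes with at most 3 counts in every library of one line were set to their bound. *S100a8* had 29.6, 37.0 and 48.7 CPM in Hox-WT and 0, 0.166 and 0.0511 CPM in Hox-URE. Its partner *S100a9*, with which it forms calprotectin, was at least 139-fold lower, since no Hox-URE library had a count. The exceptions were *Lcn2*, a siderophore-binding protein, which rose from 8.06 ± 1.42 to 133 ± 36.2 CPM (SD, n = 3 each), and *Anxa1*, an anti-inflammatory annexin, which rose from 231 ± 14.4 to 1131 ± 294 CPM (SD, n = 3 each).

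Among 18 tested monocyte and macrophage genes 14 fell (77.8%) and 2 rose (11.1%), with a median of -4.53, or -3.22 at the bounds. The adhesion receptor *Adgre1*, which encodes F4/80, had 272, 270 and 280 CPM in Hox-WT and 0.218, 1.41 and 2.66 CPM in Hox-URE (log2 fold change -7.67 ± 0.71 SE, adjusted p by edgeR = 1.17e-05). The coagulation factor subunit *F13a1* fell from 107 ± 44.6 to 1.70 ± 0.676 CPM (SD, n = 3 each), and *Fcgr1*, the high-affinity IgG receptor, was at least 60.5-fold lower. Both genes that rose encode proteins of inflammatory monocytes and macrophages. The chemokine receptor *Ccr2* had 14.4, 13.1 and 10.6 CPM in Hox-WT and 840, 939 and 877 CPM in Hox-URE. Its log2 fold change was 6.13 ± 0.20 (SE, adjusted p by edgeR = 1.46e-08), and the tight libraries were far apart. The galectin *Lgals3* rose from 0.142 ± 0.0565 to 14 ± 2.71 CPM (SD, n = 3 each). Of 10 genes of the phagocyte oxidase and respiratory burst 3 fell (30%) and none was called higher. *Cyba*, *Ncf1*, *Rac1* and *Rac2* were not called.

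Mast cell and basophil genes moved the other way. Of 25 listed genes 18 were tested, and 3 had no counts in any of the 6 libraries. Among the 18 tested genes 13 rose (72.2%) and 2 fell (11.1%), and the median log2 fold change was 1.47. The IgE receptor α chain *Fcer1a*, a defining marker, was not among the tested members. *Prss34* had 0.113, 0.286 and 0.242 CPM in Hox-WT and 591, 442 and 1084 CPM in Hox-URE, a log2 fold change of 11.65 ± 0.65 (SE, adjusted p by edgeR = 3.66e-07). Carboxypeptidase A3 (*Cpa3*), stored in mast cell granules, had 362, 565 and 716 CPM in Hox-WT and 768, 2789 and 4437 CPM in Hox-URE. The lines did not overlap, but the highest Hox-WT library came close to the lowest of Hox-URE. The IL-33 receptor *Il1rl1* had 4.46, 5.21 and 5.47 CPM in Hox-WT against 31.8, 110 and 184 CPM, and 5-lipoxygenase (*Alox5*) 5.92, 4.25 and 5.85 against 22.3, 62.8 and 108 CPM. The common γ chain of Fc receptors, *Fcer1g*, rose from 135 ± 21.7 to 340 ± 67.7 CPM (SD, n = 3 each). Both genes that fell make lipid mediators of mast cells, the prostaglandin D synthase *Hpgds* and the leukotriene C4 synthase *Ltc4s*. *Ms4a2*, the β chain of the IgE receptor, had 3.62 CPM in Hox-WT and 5.08 CPM in Hox-URE and was not called. In bulk RNA, fewer cells of a type and less RNA per cell cannot be told apart.

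**Figure D2:**
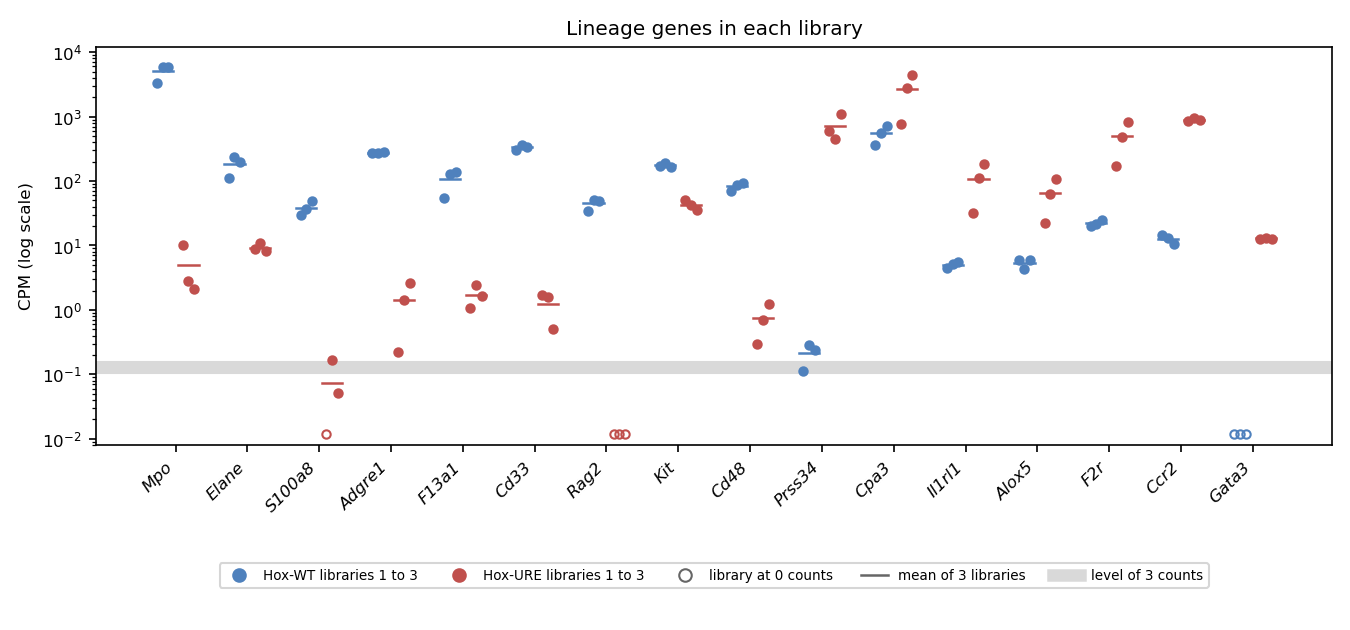
Level of 16 lineage genes in each library in CPM on a log scale, Hox-WT in blue and Hox-URE in red, with horizontal lines at the mean of 3 libraries, open circles for libraries without a count and a grey band at the level of 3 counts. Granule and monocyte genes such as *Mpo* and *Adgre1* are lower in every Hox-URE library, and *Prss34*, *Ccr2* and *Gata3* are higher in every one.

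Other lineages were mixed. Of 14 megakaryocyte and platelet genes 8 rose (57.1%) and 1 fell (7.1%), with a median of 1.45. The thrombin receptor *F2r* had 19.8, 21.5 and 24.8 CPM in Hox-WT and 173, 485 and 818 CPM in Hox-URE, and the integrin *Itga2b* rose from 2.37 ± 0.40 to 28.4 ± 12.6 CPM (SD, n = 3 each). The platelet chemokine *Pf4* was the member that fell, and 2 fell without Hox-URE library 3 or Hox-WT library 1. Of 7 tested eosinophil genes 4 fell, among them *Siglecf* from 18.3 ± 2.35 to 0.597 ± 0.668 CPM (SD, n = 3 each), and the eotaxin receptor *Ccr3* rose but stayed under 1 CPM in Hox-URE. Erythroid genes were split evenly, with 4 of 13 higher and 4 lower. Carbonic anhydrase 2 (*Car2*) fell from 1034 ± 26.7 to 518 ± 202 CPM, whereas *Tal1* and *Nfe2*, factors shared by erythroid and megakaryocytic cells, rose.

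Of 14 lymphoid genes 5 rose (35.7%) and 6 fell (42.9%). The T cell and innate lymphoid factor *Gata3* had no counts in Hox-WT and 12.8, 13.2 and 12.6 CPM in Hox-URE, at least 119-fold more. *Bcl11b*, another T lineage factor, was at least 23.3-fold higher. In the opposite direction *Rag2*, a subunit of the antigen receptor recombinase, had 33.7, 51.1 and 49.6 CPM in Hox-WT and was absent from the Hox-URE counts, at least 348-fold lower. Of 19 stem and progenitor genes 9 fell (47.4%) and 2 rose (10.5%), but 4 rose without Hox-URE library 1. *Kit* fell from 175 ± 15.7 to 43.0 ± 7.62 CPM, *Cd48* from 83.4 ± 11.7 to 0.741 ± 0.469 CPM, and the transcription factor *Hlf* from 413 ± 30.8 to 170 ± 15.4 CPM (SD, n = 3 each). The protein C receptor *Procr* fell from 20.7 ± 4.71 to 2.42 ± 0.993 CPM. Endoglin (*Eng*) and the RNA-binding protein *Msi2* were higher.

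The transcription factors of the myeloid list showed 16 higher (40%) and 9 lower genes (22.5%) among 40 tested, 18 of the 25 calls lying outside the signatures. *Cebpa*, the factor required for granulocyte progenitors, was not called, with 305 ± 9.80 CPM in Hox-WT and 338 ± 20.4 CPM in Hox-URE (SD, n = 3 each, edgeR adjusted p = 0.178). Its relatives diverged. *Cebpe*, which drives secondary granule genes, fell from 61.0, 55.9 and 43.9 CPM to 5.03, 6.71 and 6.95 CPM, and *Cebpd* rose from 12.9, 13.8 and 13.7 CPM to 51.2, 58.4 and 67.5 CPM. The lines did not overlap for either gene. The inhibitor of E proteins *Id2* rose from 1.29 ± 0.344 to 16.0 ± 2.43 CPM (SD, n = 3 each), and *Bhlhe41* and *Gfi1b* rose as well. *Tfec*, a member of the MiT family expressed in macrophages, had 16.2 ± 2.96 CPM in Hox-WT and 1 count in the 3 Hox-URE libraries, a ratio of 1151 (95% counting interval 206 to 45500).

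Immune receptors changed in both directions. The list of inhibitory receptors with ITIM motifs, which recruit phosphatases to dampen activation, also holds the phosphatase *Inpp5d*. Of its 20 tested genes 12 fell (60.0%) and 5 rose (25%), with a median of -2.96, or -2.43 at the bounds. *Sirpa*, the receptor for CD47, had 41.8, 48.9 and 44.9 CPM in Hox-WT and 2, 1 and 2 counts in Hox-URE, a ratio of 644 (95% counting interval 276 to 1986). The sialic acid lectin *Cd33* fell from 332 ± 31.1 to 1.25 ± 0.645 CPM, and the inhibitory IgG receptor *Fcgr2b* from 67.7 ± 4.12 to 0.0430 ± 0.00746 CPM (SD, n = 3 each). *Ceacam1*, *Cd200r1*, *Cd72*, *Lilrb4a* and the phosphatase *Inpp5d* rose.

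Of 30 toll-like and pattern recognition genes 13 fell (43.3%) and 7 rose (23.3%). *Tifab*, which restrains TRAF6 signalling, had 149, 156 and 181 CPM in Hox-WT and 1.24, 1.28 and 1.12 CPM in Hox-URE, and its log2 fold change of -7.05 ± 0.14 (SE, adjusted p by edgeR = 2.11e-09) had one of the smallest p values of all genes. The adaptor *Card9* fell from 39.9 ± 3.76 to 0.824 ± 0.116 CPM, and *Ticam2* fell too. The inflammasome sensor *Nlrp3* went against this, with 3, 1 and 1 counts in Hox-WT and 53.9, 34.4 and 30.6 CPM in Hox-URE, a ratio of 684 (95% counting interval 293 to 2107).

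Chemokine receptors rose in 10 (55.6%) and fell in 3 (16.7%) of 18 cases, with a median of 1.04, or 0.70 at the bounds. Besides *Ccr2*, *Ccr1* rose from 0.133 ± 0.118 to 43.3 ± 6.15 CPM (SD, n = 3 each). The 3 that fell bind lipids, namely the leukotriene B4 receptor *Ltb4r1*, the platelet-activating factor receptor *Ptafr* and the sphingosine-1-phosphate receptor *S1pr2*. Ligands followed with 13 higher (48.1%) and 7 lower genes (25.9%) of 27, with a median of 0.62, or 0.15 at the bounds. The IL-1 receptor antagonist *Il1rn* rose from 1.31, 0.643 and 1.52 CPM to 48.7, 63.0 and 74.9 CPM, oncostatin M (*Osm*) from 7.21 ± 0.744 to 49.0 ± 14.9 CPM, and *Flt3l* from 1.71 ± 0.189 to 15.9 ± 2.36 CPM (SD, n = 3 each). *Il15* and *Tnfsf13* fell.

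Cytokine receptors were balanced, with 13 higher (36.1%) and 14 lower genes (38.9%) of 36. The common β chain of the IL-3, IL-5 and GM-CSF receptors, *Csf2rb*, had 174, 162 and 156 CPM in Hox-WT and 1870, 1969 and 2016 CPM in Hox-URE (log2 fold change 3.57 ± 0.14 SE, adjusted p by edgeR = 4.59e-08). The α chain for IL-3, *Il3ra*, rose from 11.3 ± 2.91 to 109 ± 22.6 CPM, whereas the α chain for GM-CSF, *Csf2ra*, fell from 21 ± 4.98 to 4.72 ± 1.66 CPM and the α chain for IL-5, *Il5ra*, had no counts left. Thus the 3 α chains that share this β chain did not move together. The IL-1 receptor *Il1r1* rose from 0.238 ± 0.0652 to 48.7 ± 12.1 CPM, and *Tnfrsf13b*, which binds BAFF and APRIL, was at least 572-fold lower. Adhesion molecules rose in 11 (32.4%) and fell in 7 (20.6%) of 34 cases. *Itgal*, the α chain of LFA-1, rose from 38.9 ± 8.11 to 341 ± 35.7 CPM (SD, n = 3 each), whereas its ligand *Icam1* lost all counts, at least 106-fold lower.

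The JAK-STAT list holds the kinases and STAT factors of cytokine signalling, targets of these factors, and feedback genes that inhibit the receptors. Of 29 tested 15 rose (51.7%) and 1 fell (3.4%), and 14 of these 16 genes were in no signature. The median log2 fold change was 0.60. *Cish*, a classical STAT5 target, had 18.1, 25 and 22.7 CPM in Hox-WT and 139, 110 and 126 CPM in Hox-URE, with no overlap (log2 fold change 2.51 ± 0.15 SE, adjusted p by edgeR = 6.56e-07). *Socs1* rose from 2.30 ± 0.184 to 14.7 ± 10.1 CPM, *Socs2* from 27.8 ± 3.64 to 78.8 ± 19.2 CPM and *Socs3* from 11.6 ± 0.543 to 87.0 ± 23.2 CPM (SD, n = 3 each). The anti-apoptotic *Bcl2l1* rose from 57.5 ± 3.36 to 151 ± 17.3 CPM. *Socs5* was the only member that fell, while 2 fell without Hox-URE library 2 or 3, and *Mcl1* and *Socs4* were not called.

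MAPK feedback genes rose in 13 (37.1%) and fell in 4 (11.4%) of 35 cases. *Spry1*, an inhibitor of receptor tyrosine kinase signalling, rose from 10.3, 12.2 and 10.6 CPM to 47.6, 49.7 and 47.7 CPM, and *Etv5*, an ETS factor induced by ERK, rose from 10.4 ± 1.99 to 45.9 ± 8.65 CPM. *Rasal3*, a GTPase-activating protein for Ras, rose from 29.9 ± 2.58 to 141 ± 15.4 CPM (SD, n = 3 each). In the PI3K list 15 of 43 genes rose (34.9%) and 6 fell (14%). The lipid phosphatase *Inpp5d* rose, and the leukocyte catalytic subunit *Pik3cd* fell from 177 ± 26.4 to 88.3 ± 33.8 CPM.

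Of 49 GPCR and calcium genes 16 rose (32.7%) and 13 fell (26.5%). Phospholipase C β1 (*Plcb1*) had no counts in Hox-WT but 15.1 ± 1.70 CPM in Hox-URE (SD, n = 3), at least 141-fold higher, and the calmodulin kinase *Camk1* fell from 38.7 ± 2.97 to 0.315 ± 0.0534 CPM (SD, n = 3 each). Protein kinase C β (*Prkcb*) rose from 6.97 ± 1.73 to 155 ± 25.1 CPM. Of 48 small GTPase and cytoskeleton genes 14 rose (29.2%) and 10 fell (20.8%), against 21.3% higher and 15.9% lower over all genes. *Nckap1l*, the hematopoietic subunit of the WAVE complex that drives actin branching, had 217, 285 and 285 CPM in Hox-WT and 0, 0 and 2 counts in Hox-URE, a ratio of 9372 (95% counting interval 2594 to 77390). *Coro1a*, an actin regulator of leukocytes, fell from 639 ± 43.4 to 83.4 ± 13.6 CPM, and the Rac activator *Tiam1* from 135 ± 4.45 to 2.86 ± 0.355 CPM. Non-muscle myosin (*Myh9*), thymosin β4 (*Tmsb4x*) and ezrin (*Ezr*) rose, and the GTPases *Rac1*, *Rac2* and *Cdc42* themselves were not called.

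Developmental pathways had fewer expressed members. In the TGF-β and BMP list 9 of 28 genes rose (32.1%) and 6 fell (21.4%). The latent binding protein *Ltbp3* rose from 2.77 ± 1.05 to 111 ± 8.71 CPM, and *Tgfb3* had 1 count in Hox-WT and 7.21, 19.4 and 30.5 CPM in Hox-URE. Downstream, the mediator *Smad3* fell from 35.6, 37.4 and 34.9 CPM to 1.02, 0.705 and 0.715 CPM, and the receptor *Bmpr2* from 23.1 ± 2.06 to 0.496 ± 0.145 CPM (SD, n = 3 each). Wnt, Notch and Hedgehog genes showed 6 higher (23.1%) and 8 lower members (30.8%) of 26, and the median was 0.01 and changed its sign under 4 alternatives. *Wnt2* and the Wnt antagonist *Dkk1*, both silent in Hox-WT, had 101 ± 28.7 and 91.6 ± 22.2 CPM (SD, n = 3 each) in Hox-URE, at least 940-fold and 850-fold higher. Of 19 axon guidance genes 9 rose (47.4%) and 5 fell (26.3%), with *Plxna2* at least 145-fold higher and *Plxnc1* reduced from 59.7 ± 10.3 to 1.63 ± 0.837 CPM.

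Antigen presentation genes rose in 15 (65.2%) and fell in 2 (8.7%) of 23 cases, with a median log2 fold change of 0.79. Classical and non-classical class I genes were among them. *H2-D1* had 188, 326 and 410 CPM in Hox-WT and 709, 792 and 1051 CPM in Hox-URE, and *H2-Q7* had 13.4, 14.2 and 20.9 CPM against 196, 209 and 252 CPM. Neither gene overlapped between lines, although class I genes are so alike that the quantification may exchange reads among them. The peptide transporter subunit *Tap2* rose from 164 to 328 CPM. The immunoproteasome subunit *Psmb10* and the class II editor *H2-DMa* fell. *H2-Ab1*, a class II chain, had 30.4, 30.8 and 23.7 CPM in Hox-URE, and in Hox-WT only library 2 contained any, with 0.179 CPM.

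The interferon-stimulated list was divided, with 12 of 28 genes higher (42.9%) and 6 lower (21.4%). *Usp18*, a negative regulator of the interferon response, rose from 0.418 ± 0.0858 to 7.63 ± 0.379 CPM, and the nucleic acid sensor *Zbp1* from 0.0945 ± 0.0707 to 6.77 ± 3.49 CPM (SD, n = 3 each). Typical genes of a type I response such as *Isg15* and *Ifit2* were not called, and *Gbp3*, *Irgm1* and *Trim30a* fell. The guanylate-binding proteins on chromosome 5 stood out by size. *Gbp4* (chr5:105115767-105139586, minus strand) had no counts in Hox-WT and 515, 735 and 828 CPM in Hox-URE, at least 6424-fold more. *Gbp6* (chr5:105270702-105293698, minus strand) was at least 4174-fold higher and *Gbp8* (chr5:105014150-105139540, minus strand) at least 536-fold higher. *Gbp10* was at least 403-fold higher. The models of *Gbp4* and *Gbp8* overlap on one strand and the family is closely related, so the split of reads between them is uncertain. Each of the 4 was at 0 counts in every Hox-WT library.

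Genes of the endoplasmic reticulum were either called higher in Hox-URE or not called. Chaperones and oxidases of this compartment fold secreted proteins, and the unfolded protein response raises them through the sensors ATF6, IRE1 and PERK. Of 33 tested genes 19 rose (57.6%) and none fell, with a median of 0.66, and 15 of the 29 members outside the signatures were called. *Ero1l*, the oxidase that regenerates protein disulfide isomerase, had 316, 282 and 234 CPM in Hox-WT and 1548, 1137 and 1200 CPM in Hox-URE (log2 fold change 2.22 ± 0.17 SE, adjusted p by edgeR = 3.40e-06). The co-chaperone *Dnajb9* rose from 27.3 ± 2.40 to 96.4 ± 8.31 CPM and the sensor *Atf6* from 35.5 ± 2.49 to 79.3 ± 5.21 CPM (SD, n = 3 each). The main chaperone *Hspa5* overlapped between lines, at 1179 ± 55.4 and 1289 ± 96.5 CPM, and neither it nor *Hsp90b1* was called.

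**Figure D3:**
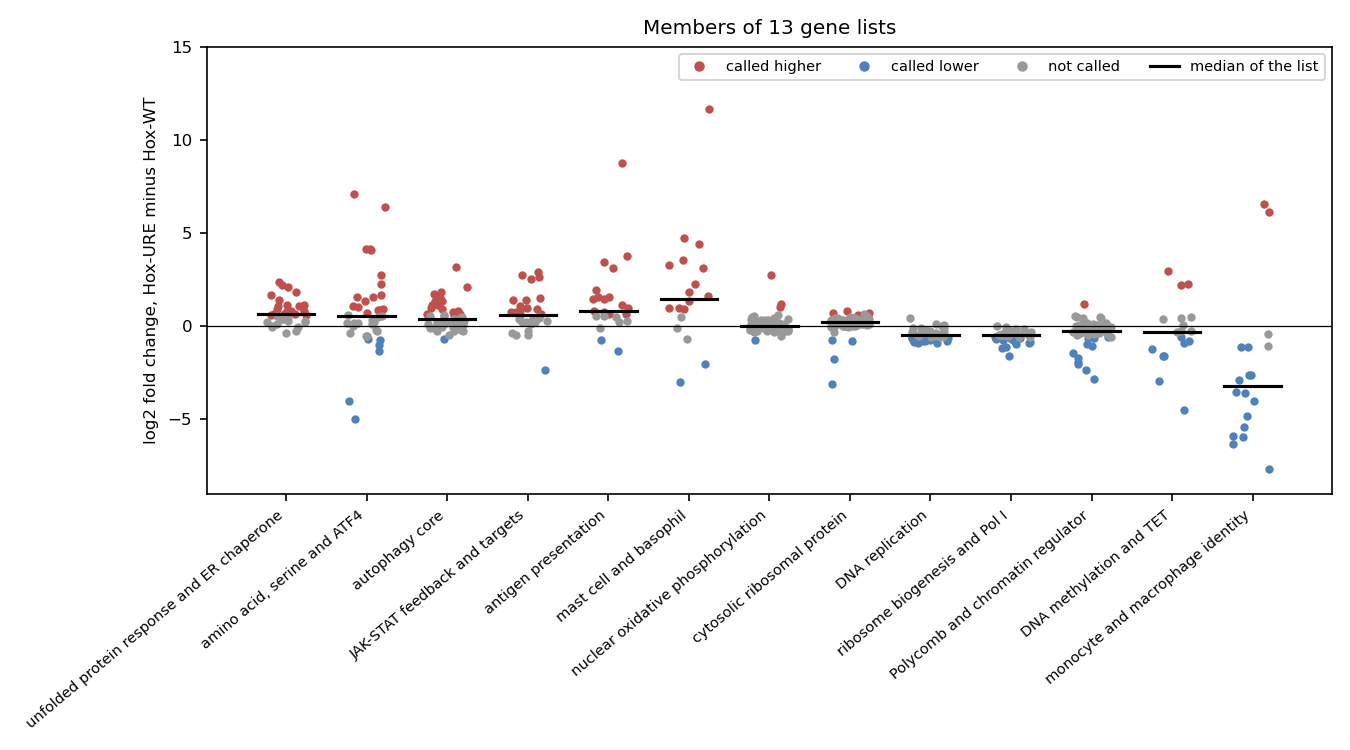
Log2 fold change (Hox-URE minus Hox-WT) of each tested member of 13 gene lists, with genes without counts in one line placed at their bound. Red points were called higher, blue points lower and grey points not called, and black lines are list medians. Members of the unfolded protein response list lie mostly above 0 with no blue point, and the lists of DNA replication and ribosome biogenesis have medians below 0 and no red point.

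The amino acid and ATF4 list had 18 higher (46.2%) and 6 lower genes (15.4%) of 39, with a median of 0.57. ATF4 is the factor translated when eIF2α is phosphorylated, and it raises transporters and enzymes of amino acid supply. *Atf4* itself had 97.7, 115 and 97.7 CPM in Hox-WT and 394, 229 and 178 CPM in Hox-URE (log2 fold change 1.37 ± 0.25 SE, adjusted p by edgeR = 0.00108). Its target *Trib3* had 3.22, 3.29 and 2.21 CPM against 111, 27.2 and 16.7 CPM, so Hox-URE library 1 was far above the other two. The glutamine transporter *Slc1a5* rose from 125 ± 8.27 to 369 ± 112 CPM, and *Nupr1*, a stress-induced coregulator, from 0.752 ± 0.510 to 107 ± 61.9 CPM (SD, n = 3 each). Asparagine synthetase (*Asns*) was not called (edgeR adjusted p = 0.063), though it was with DESeq2 and without Hox-URE library 2 or 3, and the branched-chain aminotransferase *Bcat1* fell from 78.6 ± 9.68 to 4.82 ± 1.46 CPM. The tRNA synthetases *Wars*, *Sars* and *Tars* were the 3 that rose in the translation list, where 30 of 34 genes were not called.

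Further along the secretory route, 13 of 38 glycosylation genes rose (34.2%) and 4 fell (10.5%). *Man1a*, a Golgi mannosidase that trims N-glycans, had 7.16, 7.04 and 7.71 CPM in Hox-WT and 346, 351 and 316 CPM in Hox-URE, a log2 fold change of 5.53 ± 0.13 (SE, adjusted p by edgeR = 3.16e-09). Its relatives *Man1a2* and *Man1c1* were not called. *Galnt6*, which starts O-glycans, rose from 11.4 ± 1.47 to 210 ± 7.05 CPM, and the branching enzyme *Gcnt2* fell from 47.6 ± 6.07 to 0.962 ± 0.367 CPM (SD, n = 3 each). Sphingolipid genes rose in 10 (37.0%) and fell in 5 (18.5%) of 27 cases. The sialyltransferase *St3gal2* rose from 5.94 ± 2.80 to 85.0 ± 40.4 CPM, while *St3gal5*, which makes the ganglioside GM3, fell from 16.9 ± 1.60 to 1.08 ± 0.462 CPM.

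Of 47 core autophagy genes 18 rose (38.3%) and 1 fell (2.1%), against 21.3% and 15.9% over all genes, with a median log2 fold change of 0.41. Of the 40 members outside the signatures 13 rose and 1 fell. The lower count was 0 without Hox-URE library 1 and 2 without library 3. *Atg9a* rose from 41.9 to 118 CPM and *Atg7* from 49.6 to 126 CPM, while the initiating kinase *Ulk2* was called only when Hox-URE library 1 or 3 or Hox-WT library 2 was left out or no fold was required. The receptor *Optn* rose from 7.95, 10.2 and 10.1 CPM to 59.5, 96.7 and 96.4 CPM. Of 60 lysosomal genes 19 rose (31.7%) and 6 fell (10.0%), with the same median of 0.41. The protease legumain (*Lgmn*) had 0, 0.107 and 0.138 CPM in Hox-WT and 121, 239 and 290 CPM in Hox-URE, so its level in Hox-WT was close to that of 3 counts or below it. The cholesterol exporter *Npc1* and the hyaluronidase *Hyal2* fell. The antioxidant list held 15 higher (40.5%) and 5 lower genes (13.5%) of 37, or 3 lower without Hox-URE library 1 or 3 or Hox-WT library 2. Ferritin light chain (*Ftl1*) rose from 2124 ± 233 to 4819 ± 296 CPM, and glutathione peroxidase 1 (*Gpx1*) fell from 1092 ± 20.6 to 450 ± 81.3 CPM (SD, n = 3 each).

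Of 43 DNA replication genes 16 fell (37.2%) and none was called higher, against 15.9% lower over all genes. The median was -0.48, and 27 members were not called. *Mcm7*, a subunit of the replicative helicase, had 802, 786 and 860 CPM in Hox-WT and 436, 422 and 440 CPM in Hox-URE (log2 fold change -0.92 ± 0.09 SE, adjusted p by edgeR = 1.43e-05). *Mcm2* did not reach the fold threshold, with 392 ± 10.0 against 322 ± 10.5 CPM (SD, n = 3 each), and neither did *Mcm3* or *Mcm5*, though *Mcm3* did without Hox-URE library 2 or Hox-WT library 2 and both did with library size as the only scaling. Mitosis genes were called in 7 of 36 cases (19.4%), against 37.2% of all genes. *Ccnb1*, cyclin B1, rose from 224 ± 15.7 to 454 ± 20.1 CPM, and *Aurka* fell from 99.9 ± 7.47 to 60.2 ± 1.08 CPM. *Ccna2*, *Ccnb2* and *Cdk1* were not called.

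The D-type cyclins, which link growth factors to entry into the cell cycle, split. *Ccnd1* had 7.91, 6.25 and 5.67 CPM in Hox-WT and 1 count in the 3 Hox-URE libraries, a ratio of 468 (95% counting interval 83.7 to 18530). *Ccnd2* fell from 246 ± 16.1 to 75.3 ± 22.7 CPM and *Ccnd3* rose from 205 ± 5.33 to 394 ± 25.4 CPM (SD, n = 3 each). The INK4 inhibitors *Cdkn2c* and *Cdkn2b* rose, the former from 15.9, 23.1 and 18.8 CPM to 127, 149 and 146 CPM. *Myc* fell from 274 ± 16.2 to 128 ± 9.17 CPM.

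Of 39 genes for ribosome biogenesis and RNA polymerase I 14 fell (35.9%) and none was called higher, with a median of -0.48. Without Hox-URE library 1 the number that fell was 23. *Ddx21*, a helicase of pre-rRNA processing, had 327, 255 and 301 CPM in Hox-WT and 89.8, 91.7 and 108 CPM in Hox-URE. Nucleophosmin (*Npm1*) fell from 2283 ± 204 to 1059 ± 61.4 CPM and *Wdr12* from 214 ± 14.2 to 95.8 ± 14.5 CPM (SD, n = 3 each). The nucleotide list had 8 lower (22.9%) and 4 higher genes (11.4%) of 35. Of its enzymes of purine synthesis, *Paics* fell from 478 ± 24.9 to 251 ± 23.6 CPM and *Ppat* from 144 ± 11.5 to 78.1 ± 11.3 CPM. The chaperones *Hspa8*, *Hspd1*, *Hspe1* and *Hsph1* were the 4 lower genes of the heat shock and proteasome list, of which 31 of 37 were not called.

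The ribosomal proteins themselves changed little, as 73 of 81 were not called and 4 rose, or 7 without Hox-URE library 1. *Rpl29* fell from 656 ± 57.7 to 75.8 ± 16.7 CPM (SD, n = 3 each). For 3 of the 4 that fell, a processed copy elsewhere in the genome rose. *Rpl3* fell from 2225 to 641.5 CPM while *Rpl3-ps1* on chromosome X rose from 0.0625 to 2253 CPM, and the sum of both was 2224 ± 247 CPM in Hox-WT and 2894 ± 103 CPM in Hox-URE (SD, n = 3 each). The sums of *Rps7* with *Rps7-ps3* were 1286 ± 82.5 and 1360 ± 73.9 CPM, and those of *Rps2* with *Rps2-ps10* 3854 ± 537 and 4190 ± 83.9 CPM. Reads of such near-identical transcripts can be assigned to either locus, so the separate values of *Rpl3*, *Rps7* and *Rps2* are uncertain.

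Of 53 nuclear genes of oxidative phosphorylation 4 were called (7.5%), against 37.2% of all genes. *Ndufa1*, *Cox6c* and *Atp5e* rose and *Ndufb8* fell, and 5 rose when Hox-URE library 1 or Hox-WT library 3 was left out. In glycolysis and the pentose phosphate pathway 29 of 36 genes were not called and 4 rose, or 7 without Hox-URE library 1. Pyruvate kinase (*Pkm*) rose from 1511 ± 236 to 2825 ± 578 CPM, hexokinase 3 (*Hk3*), the myeloid isoform, fell from 299 ± 30.4 to 86.8 ± 21.6 CPM, and *Pdk1*, which inhibits pyruvate dehydrogenase, fell from 76.5, 73.7 and 74.5 CPM to 7.90, 4.93 and 7.92 CPM. Of 27 genes of the citric acid cycle and its feeding reactions 4 rose and 3 fell (25.9% called). Pyruvate carboxylase (*Pcx*) rose from 4.24 ± 0.49 to 39.9 ± 22.1 CPM and *Idh2* fell from 289 to 96.2 CPM.

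Lipid genes were called in both directions. Of 33 cholesterol genes 9 fell (27.3%) and 3 rose (9.1%), against 15.9% lower and 21.3% higher over all genes, with a median of -0.35. The cholesterol exporter *Abca1* rose from 12.4 ± 2.08 to 38.5 ± 8.39 CPM (SD, n = 3 each). The transcription factor *Srebf2*, which drives this pathway, was not called. The stearoyl-CoA desaturases *Scd1* and *Scd2* fell, *Scd1* from 41.0 ± 16.1 to 0.705 ± 0.390 CPM and *Scd2* from 433 ± 80 to 89.4 ± 2.17 CPM. Acetyl-CoA synthetase 2 (*Acss2*) rose from 8.47, 8.96 and 7.92 CPM to 53.1, 94.8 and 121 CPM, and the acyltransferase *Agpat3* rose from 1.28 ± 0.484 to 146 ± 5.2 CPM (SD, n = 3 each). Transporters and channels were called in 33 of 42 cases, 19 higher (45.2%) and 14 lower (33.3%). The amino acid transporter *Slc7a8* rose from 35.7 ± 3.02 to 487 ± 105 CPM, and the calcium-gated potassium channel *Kcnn4* fell from 172 ± 10.2 to 2.35 ± 0.649 CPM.

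Chromatin and RNA regulators were called in both directions. Of 18 genes for DNA methylation and demethylation 8 fell (44.4%) and 3 rose (16.7%). The de novo methyltransferase *Dnmt3b* had 76.1, 74.1 and 76.3 CPM in Hox-WT and 10.4, 10.3 and 8.79 CPM in Hox-URE (log2 fold change -2.94 ± 0.14 SE, adjusted p by edgeR = 1.48e-07). *Dnmt3a* fell from 72.5 ± 6.30 to 31.5 ± 0.414 CPM and the maintenance enzyme *Dnmt1* from 292 ± 28.9 to 168 ± 47.9 CPM (SD, n = 3 each), so all 3 methyltransferases that act on DNA were lower. Of 52 Polycomb and chromatin genes 11 fell and 1 rose, while 3 rose without Hox-URE library 3 and 2 without Hox-URE library 2 or any 1 of the Hox-WT libraries. In all 23.1% of this list was called, against 37.2% of all genes. The histone H3K27 methyltransferase *Ezh2* fell from 138 ± 6.39 to 66.0 ± 8.10 CPM, and its paralog *Ezh1* was the gene that rose, from 22.1 ± 3.18 to 50.5 ± 6.39 CPM. The Polycomb component *Bmi1* fell from 108 ± 7.17 to 26.4 ± 5.05 CPM and the demethylase *Kdm5b* from 81.9 ± 6.70 to 11.6 ± 0.243 CPM. *Eed* and *Suz12*, the partners of both EZH proteins, were not called. Of 41 splicing and RNA processing genes 8 fell (19.5%) and 6 rose (14.6%), against 15.9% lower and 21.3% higher over all genes. The number that fell was 15 without Hox-URE library 1, 5 without library 2 and 17 with library size as the only scaling. *Igf2bp3*, an RNA-binding protein of fetal progenitors, had 157, 175 and 166 CPM in Hox-WT and no counts in Hox-URE, at least 1288-fold lower. *Mbnl1* and *Mbnl2* rose and *Mbnl3* fell.

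Circadian clock and nuclear receptor genes rose in 13 (34.2%) and fell in 6 (15.8%) of 38 cases. Both lines were grown with β-estradiol. *Greb1* (chr12:16670615-16800886, minus strand), an estrogen receptor target and cofactor, had 0 counts in Hox-WT and 109, 120 and 109 CPM in Hox-URE, at least 1046-fold more. The progesterone receptor *Pgr* (chr9:8899833-8968611, plus strand) had 0 counts against 61.3, 65.9 and 58.1 CPM, at least 573-fold more. The estrogen receptor *Esr1* was higher too, at 35.8 ± 1.61 and 68.0 ± 3.44 CPM (SD, n = 3 each), and *Hoxb8* at 65.8 ± 4.07 and 132 ± 7.98 CPM. The table does not separate transgene from endogenous reads of *Hoxb8* and *Esr1*, and the part of the transgene in these differences was not tested. The retinoid receptors *Rarg* and *Rxra* rose.

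Of 27 caspase and death receptor genes 8 fell (29.6%) and 1 rose (3.7%), or 2 without Hox-URE library 1 or Hox-WT library 2. *Gsdmd*, the pore protein of pyroptosis, fell from 39.9 ± 3.16 to 2.70 ± 0.213 CPM (SD, n = 3 each). In the BCL2 family 5 of 18 rose (27.8%) and 2 fell (11.1%), near the shares over all genes. *Bcl2*, *Bcl2l1* and *Bcl2l2*, which protect from death, rose, and so did *Pmaip1* and *Hrk*, which promote it. p53 target genes rose in 12 (42.9%) and fell in 1 (3.6%) of 28 cases, with a median of 0.57, and the gene that fell was *Trp53* itself, from 214 ± 8.40 to 132 ± 3.23 CPM. The number that fell was 2 without Hox-URE library 1 and 3 without Hox-URE library 2 or Hox-WT library 3. *Perp*, a membrane protein induced by p53, rose from 19.4, 20.6 and 14.4 CPM to 533, 701 and 735 CPM, and the secreted *Gdf15* from 1.91 ± 0.321 to 32.9 ± 8.31 CPM. *Cdkn1a* was not called but was so without library 2 of either line, and *Bax* was not called.

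Several of the largest differences of all genes lay outside the groups above. *Mmp13* (ENSMUSG00000050578, chr9:7272514-7283331, plus strand), a collagenase, had 0, 2 and 1 counts in Hox-WT and 4741, 5893 and 6063 CPM in Hox-URE, a ratio of 153100 (95% counting interval 52390 to 742400). *Tpd52l1* had 1 count in Hox-WT and 235 ± 35.4 CPM in Hox-URE, and *Serpinb2*, an inhibitor of urokinase, rose from 0.654 ± 0.184 to 117 ± 9.79 CPM (SD, n = 3 each). Urokinase (*Plau*) rose as well, from 2.38 ± 0.248 to 101 ± 67.3 CPM. The heparan sulfate proteoglycan *Sdc2* was at least 1717-fold higher, *Laptm4b* at least 2571-fold and *Syt9* at least 1232-fold. Conversely *Igfbp4* (chr11:99041244-99054392, plus strand), an insulin-like growth factor binding protein, had 585, 714 and 702 CPM in Hox-WT and none in Hox-URE, at least 5174-fold lower. The PACAP receptor *Adcyap1r1* was at least 618-fold lower, the sulfotransferase *Hs6st2* at least 602-fold and neuregulin 1 (*Nrg1*) at least 339-fold. For all of these genes the 3 libraries of one line lay apart from the 3 of the other, as in 60.3% of all genes tested. Genes picked for large differences separate by that choice, so this adds no support.

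Hox-URE library 1 stood apart from the other libraries of its line. The chi-square per degree of freedom, a measure of the difference between 2 libraries, was 71.9 and 105 between library 1 and libraries 2 and 3. Between Hox-URE libraries 2 and 3 it was 28.1, and within Hox-WT 19.1 to 33.8. Of 1997 genes called higher with a mean of at least 5 CPM in Hox-URE, 94 differed over 3-fold between the highest and the lowest Hox-URE library. In 72 of these 94, library 1 was lowest and library 3 highest. Only 6 of 1536 genes called lower, with a mean of at least 5 CPM in Hox-WT, differed that much within Hox-WT. Mast cell genes belonged to the variable genes, and their median stood 0.87, 1.56 and 1.69 above the Hox-WT mean (log2) in Hox-URE libraries 1, 2 and 3. The megakaryocyte list had 0.53, 1.60 and 1.62, the lysosome list 0.02, 0.55 and 0.71, and the interferon list -0.02, 0.56 and 0.56. *Cyp11a1*, a steroid-producing enzyme, had 5.83, 88.2 and 262 CPM in these libraries, and its Hox-WT libraries at 2.62, 4.50 and 5.92 CPM overlapped with the first. *Csf2rb2*, the mouse IL-3 receptor β chain, had 64.8, 372 and 676 CPM against 15.9, 20.4 and 17.3 CPM. The ATF4 list was the reverse, with 0.99, 0.38 and 0.21, and transglutaminase 2 (*Tgm2*) had 1812, 564 and 635 CPM. The autophagy list varied little, with 0.35, 0.38 and 0.41, and so did DNA replication, with -0.53, -0.49 and -0.52. The labels gave no batch for these libraries.

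**Figure D4:**
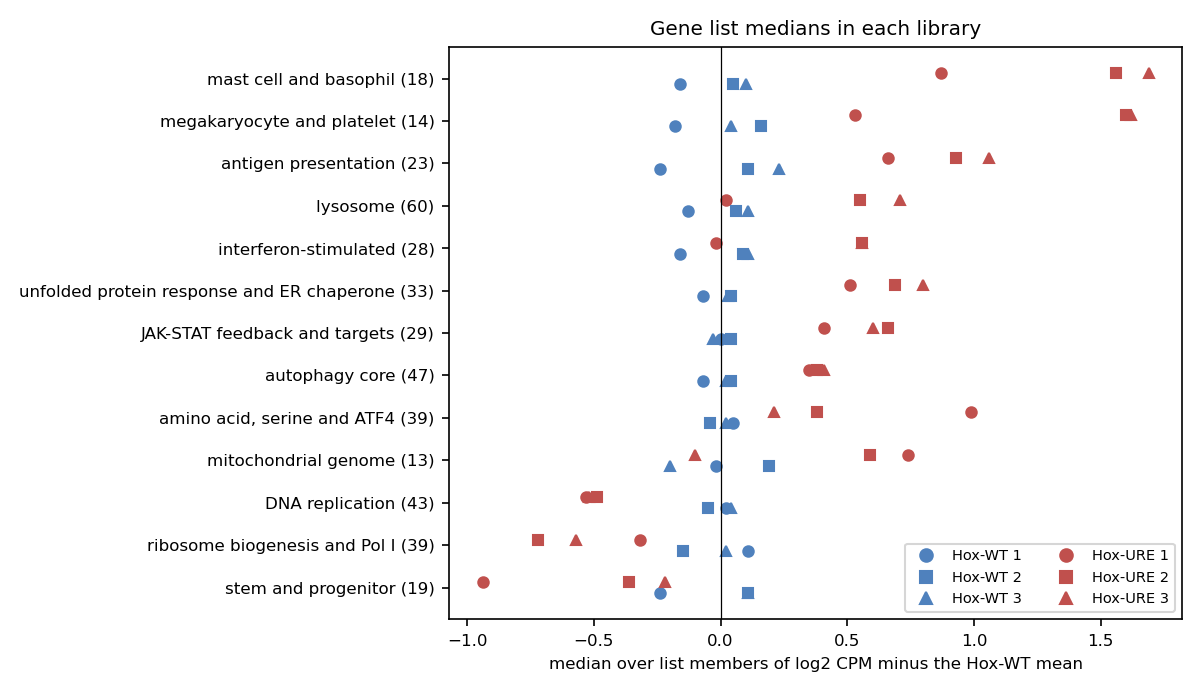
Median over the members of 13 gene lists of log2 CPM minus the Hox-WT mean, one point per library (Hox-WT blue, Hox-URE red, circle, square and triangle for libraries 1, 2 and 3). Mast cell medians lie at 0.87, 1.56 and 1.69 in Hox-URE, while the DNA replication medians lie between -0.53 and -0.49.

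By chromosome, the genes of chromosome 15 were shifted as a group. Of 511 tested 169 were higher (33.1%) and 50 lower (9.8%), and the median log2 fold change was 0.33, while the medians of the other autosomes lay between -0.09 and 0.13. The shift was present in each Hox-URE library, with medians of 0.38, 0.32 and 0.30 relative to the Hox-WT mean, and the Hox-WT libraries stood at 0.01, 0.00 and 0.00. With library size as the only scaling the median of chromosome 15 was 0.23. Chromosome 1 came next, with a median of 0.13 and 198 higher and 107 lower genes of 770. The number of chromosome copies in the lines is not known from these data, and its part in the shift was not tested. *Csf2rb* and *Csf2rb2* lie on chromosome 15, as does *Nckap1l*, which fell. Genes of the mitochondrial genome had a median of 0.44, but the Hox-URE libraries stood at 0.74, 0.59 and -0.10, so the third overlapped with Hox-WT.

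**Figure D5:**
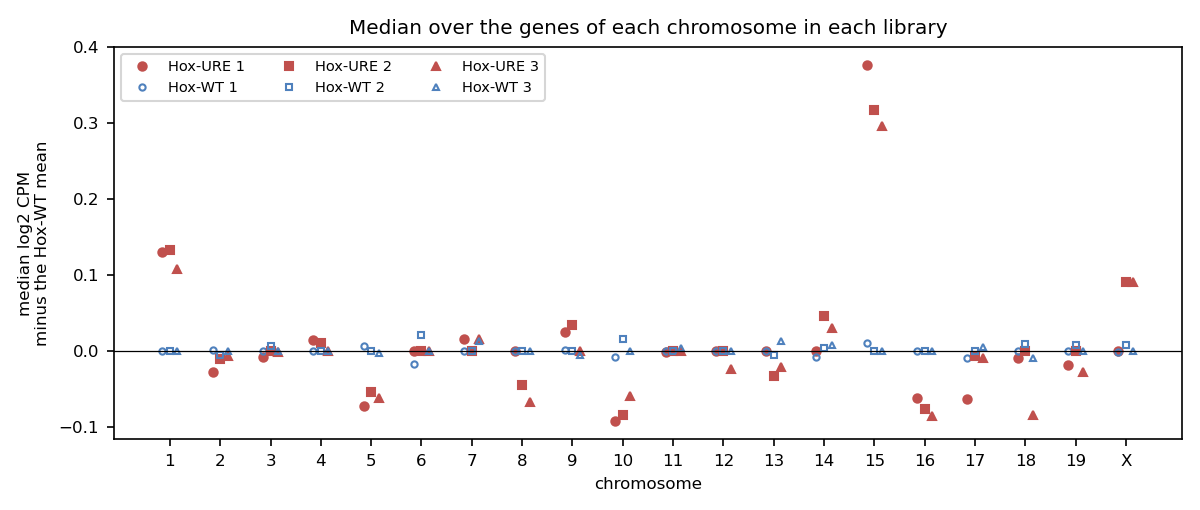
Median over the tested genes of each chromosome of log2 CPM minus the Hox-WT mean, for chromosomes 1 to 19 and X, with filled red symbols for the 3 Hox-URE libraries and open blue symbols for the 3 Hox-WT libraries. The Hox-URE medians of chromosome 15, at 0.38, 0.32 and 0.30, lie above those of every other chromosome shown.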

How the data were processed

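Poly-A RNA of the lines was sequenced from stranded libraries. According to the authors, reads were quantified with salmon against a mouse transcriptome and collapsed to gene level with tximport. The deposited values are estimated counts, already rounded and without any scaling to library size. The labels name GRCm38, and the transcriptome release and any scaling for transcript length were not given in the sources used here. The numbering of libraries comes from the labels, which do not say whether they were separate cultures, so p-values measure only the spread between libraries, which may be technical.

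The model was fitted with edgeR 4.0.16 (R 4.3.3) as one quasi-likelihood model of all 9 libraries of the series, with line as the factor, TMM factors and filterByExpr (minimum count 10), as 3 further libraries of a leukemic line share the estimate of spread. Because of them, 160 genes without a count in the 6 libraries compared were tested. Hox-URE and Hox-WT were compared by a two-sided F test with Benjamini-Hochberg adjustment over 13082 genes, at an adjusted p of 0.05 and a fold change of 1.5. Dividing the size of the log2 fold change by the root of its F statistic gave the SE. CPM used the library totals multiplied by the TMM factors. Where all libraries of a line were at 0, a bound was computed from 3 counts per library, and where they held up to 3 counts, a ratio with an exact 95% counting interval. Coordinates and biotypes came from GENCODE on GRCm38 and promoters from RefSeq.

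On simulated data for this comparison (12762 genes), edgeR called 61 of 98 genes changed by 1 on the log2 scale, 84 of 98 changed by 2, and 7 unchanged genes. DESeq2 1.42.0 called 68, 86 and 21.

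The gene lists were chosen with earlier results of these data known. Of the 65 lists, histones could not be described because 3 of 20 symbols were in the table. Genes named were the first 4 of each list, the 3 called higher and the 3 called lower with the smallest p in it, all members of a direction with 5 or fewer, the 15 with the smallest p and the 15 with the largest fold change (mean of at least 10 CPM) in each direction, *Spi1*, *Hoxb8*, *Xist* and Y-linked genes. Some genes that this rule names are not reported here. *Csf2rb2*, *Cyp11a1*, *Esr1*, *Gbp10*, *Ly6c2*, *Mmp8*, *Olfm4*, *Tgm2*, *Rpl3-ps1*, *Rps2-ps10* and *Rps7-ps3* were chosen after their values were seen.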

Additional observations from a re-analysis of the deposited data

How the results depend on the processing

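Over the alternatives (other scalings, filters, tests and thresholds, leaving out pseudogenes or sex-linked genes, and leaving out each library in turn), 4873 genes called remained within 1.5 times this count except with at least 10 counts required in every library, which left 10022 genes to test and 3200 called, 1841 higher and 1359 lower. That filter removes genes silent in one line. Without the fold change threshold 3294 genes were lower, and with a test against a fold change of 1.5 there were 1335. DESeq2 called 4887. Leaving out 1 library gave 4687 to 5235 called, 2626 to 2949 higher and 1998 to 2286 lower. With library size as the only scaling the median of all genes shifted by -0.08, 49.6% of called genes were higher in place of 57.2%, and the median of chromosome 15 was 0.23.

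Of 65 lists, 10 changed the direction of the majority of their called members under at least 1 alternative, among them secondary and tertiary granule genes, cytokine receptors and the citric acid cycle, where the calls were close or the filter removed silent genes. With library size as the only scaling, lower members numbered 10 in place of 6 in the PI3K list, 13 in place of 8 in the nucleotide list and 4 in place of 2 in the BCL2 family. Of 130 counts of list members in a direction, 20 moved by over 1.5 times when 1 library was left out. With the replicate block 4 primary granule genes were higher in place of 2. Of 226 named genes that were called, 20 were tested but not called under at least 1 alternative, most of them when tested against that fold change. Of all named genes called, 82 were not tested under at least 1 alternative, such as the filter on every library. *Olfm4* and *Tars* were not called without Hox-URE library 1, and *Cd72* without library 2. Without library 1, *Cdc42*, *Eed* and *Ifit2* were called too, and 7 glycolytic genes were higher in place of 4.

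With the number of the library as a replicate block 4908 genes were called, 2802 higher and 2106 lower, and 4785 of them were shared with the fit without it. The deviations of libraries with the same number from the means of their lines correlated with r of 0.271, 0.099 and 0.174 across genes, so not every value passed 0.1. Each library correlated best with its own number, a hint from the data that no label explains. *Ctsg* was called in this fit, with a log2 fold change of 0.73. The mitochondrial genome list had 4 higher genes in place of 1, and in leave-one-out fits 0 to 6.

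At this depth a gene under 0.104 to 0.153 CPM could not be told from absent. The 3 libraries per line come from a single line of each genotype, so the spread among them says nothing on other mice.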
